A study of Homo sapiens with 8 samples.

Results

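The IL-17 receptor, TNFRSF14 and TRAF adaptor genes are 9 genes taken by name from the 35805 genes of the deposited table: IL17RC, IL17RA, TRAF3IP2, TNFRSF14, TNFRSF1A, TRAF2, TRAF3, TRAF5 and TRAF6. They were put together because IL17RC, TNFRSF14 and TRAF5 had been seen to fall with IRF2 loss in these libraries and the other 6 belong to the same receptor complexes. Measured values therefore chose them, and their differences between IRF2-guide and control cells are given as descriptions with no test. The study measured RNA in K562 cells, an established leukaemia cell line with erythroid features. Every cell carried dCas9-KRAB, a dead Cas9 fused to a repressor domain that silences the gene to which a guide RNA directs it. The 4 groups hold 2 libraries each: cells with sg1-IRF2, cells with sg2-IRF2, which target the transcription factor gene IRF2, cells with sgAAVS1, a negative-control guide, and untransduced cells without a guide. RNA of the cells with a guide was taken 7 days after transduction. The labels do not say whether the line is 1 clone, nor do they name separate cultures behind the 2 libraries of a group. The p-values then measure the spread between these libraries only, which may be technical.

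IL-17RC and IL-17RA are the chains of the receptor for the cytokines IL-17A and IL-17F. The adaptor Act1, encoded by TRAF3IP2, joins that receptor and passes the signal to TRAF6, a ubiquitin ligase upstream of NF-kB, while TRAF2 and TRAF5 work with Act1 in stabilising target mRNAs and TRAF3 limits the signal at the receptor. TNFRSF14, also called HVEM, binds the ligands TNFSF14 (LIGHT) and LTA as well as BTLA and CD160, and it recruits TRAF2, TRAF3 and TRAF5. TNFRSF1A is the main receptor for TNF and recruits TRAF2 and RIPK1. IRF2 binds DNA elements built on the letters GAAA, which lie in many interferon-responsive promoters.

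The promoters of the 3 genes that were lower in IRF2-guide cells are shown because IRF2 binds promoter DNA, and that of TRAF3IP2 because it holds the other match among the 9 genes. RefSeq (GRCh38.p14) lists promoters for 8 of the 9 genes, 11 in all, each covering 250 bases before and 50 bases after a transcript start. Both strands were searched for AANNGAAA, the short core recognised by interferon regulatory factors, and for the longer interferon response element (GAAA, any 2 bases, then GAAA), which can overlap the core. A narrow form of the NF-kB site (GGGA, any base, then TTTCC) was searched in the same way. Capitals mark a match to AANNGAAA. The regions are chr3:9916848-9917147 on the plus strand for IL17RC, chr1:2556121-2556420 on the plus strand for TNFRSF14, chr1:211326385-211326684 on the plus strand for the first of 3 TRAF5 promoters, and chr6:111605829-111606128 on the minus strand for the first of 2 TRAF3IP2 promoters.
IL17RC: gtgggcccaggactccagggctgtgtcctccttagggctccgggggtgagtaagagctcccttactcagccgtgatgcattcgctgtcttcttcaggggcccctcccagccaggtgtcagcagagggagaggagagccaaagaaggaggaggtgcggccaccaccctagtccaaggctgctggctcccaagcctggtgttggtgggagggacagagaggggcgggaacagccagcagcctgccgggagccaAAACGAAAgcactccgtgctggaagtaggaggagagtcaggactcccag
TNFRSF14: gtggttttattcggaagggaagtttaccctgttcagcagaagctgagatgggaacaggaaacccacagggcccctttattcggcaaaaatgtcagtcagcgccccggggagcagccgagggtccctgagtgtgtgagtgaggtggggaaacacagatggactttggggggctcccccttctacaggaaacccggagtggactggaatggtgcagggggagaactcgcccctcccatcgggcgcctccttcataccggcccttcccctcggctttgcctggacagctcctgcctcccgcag
TRAF5: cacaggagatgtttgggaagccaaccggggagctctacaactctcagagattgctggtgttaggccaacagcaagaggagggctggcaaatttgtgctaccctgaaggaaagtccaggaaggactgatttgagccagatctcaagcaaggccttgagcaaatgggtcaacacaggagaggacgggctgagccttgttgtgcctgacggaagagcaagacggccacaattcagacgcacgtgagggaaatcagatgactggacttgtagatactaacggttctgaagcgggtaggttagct
TRAF3IP2: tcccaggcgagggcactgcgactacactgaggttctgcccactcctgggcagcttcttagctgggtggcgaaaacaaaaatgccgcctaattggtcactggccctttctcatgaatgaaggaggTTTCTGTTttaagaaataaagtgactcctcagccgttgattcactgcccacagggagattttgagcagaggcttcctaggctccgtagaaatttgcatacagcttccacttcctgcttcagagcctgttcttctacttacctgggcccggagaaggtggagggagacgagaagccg

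The IL17RC promoter holds AAACGAAA from 1 to 8 bases after the first base of the transcript. The TRAF3IP2 promoter holds AACAGAAA on the other strand, printed as TTTCTGTT, at bases -126 to -119 from the transcript start. No AANNGAAA was found in the windows of TNFRSF14, TRAF5, TNFRSF1A, TRAF2, TRAF3 or TRAF6. Neither the longer response element nor the searched form of the NF-kB site was found in any of the 11 windows. Other forms of that site were not searched for, and the TRAF3 window holds GGGGATTTCC, which the searched form does not cover. Over all 35116 RefSeq promoters of the same length, 22.8% hold AANNGAAA, 3.57% hold the longer element and 0.558% hold the searched NF-kB form. A letter match in IL17RC and TRAF3IP2 is thus of a kind found in many promoters. Of these 2 genes, IL17RC was lower in IRF2-guide cells and TRAF3IP2 showed values that overlapped between IRF2-guide and control libraries.

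Reads over the listed genes ran from 5248359 to 6738348 a library. The deposited values are log2 of reads divided by 1 factor per library, and all 9 genes passed the filter used for testing, a log2 value that averages at least 0 over all 8 libraries. IRF2 itself (chr4:184387713-184474580) had 4 and 8 reads in the sg1-IRF2 libraries, 22 and 21 reads in the sg2-IRF2 libraries, against 196 and 291 reads in the sgAAVS1 libraries and 271 and 268 reads in the untransduced ones. Its transcript was thus low in every library with an IRF2 guide, and more so with sg1-IRF2. Principal components were taken over the 12500 genes whose log2 values average at least 2. The first, with 31.0% of the variance, put sgAAVS1 and sg1-IRF2 libraries on 1 side and untransduced and sg2-IRF2 libraries on the other. The second, with 24.7%, separated IRF2-guide from control libraries. Of 12 erythroid markers, all were tested, their summed linear values ran from 1606 to 1634 with sg1-IRF2, 1473 to 1521 with sg2-IRF2, 1537 to 1673 with sgAAVS1 and 1451 to 1534 in untransduced cells, and 0 were called in both IRF2 guides against sgAAVS1. ALAS2, 1 of the 12, was called higher in both IRF2 guides against untransduced cells (0.31 ± 0.06, limma adjusted p = 0.0014) and in sgAAVS1 against untransduced cells (0.315 ± 0.07, limma adjusted p = 0.0047), as was HBZ in the second of these. CD2, MS4A1, MARCO, KRT5, KRT14 and COL3A1, markers of lymphocytes, macrophages, epithelium and stroma, had 0 reads, while COL1A1, of the stromal list, differed by -0.32 ± 0.08 (limma SE, adjusted p = 0.033). Since these are bulk samples, fewer cells of a type and less RNA per cell cannot be told apart.

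IL17RC, the chain that joins IL-17RA to bind IL-17A and IL-17F, showed the widest separation of the 9 genes (chr3:9917074-9933630, plus strand). Its deposited log2 value was 4.03 and 4.42 in the sg1-IRF2 libraries, 4.21 and 4.21 in the sg2-IRF2 libraries, against 5.43 and 5.23 in the sgAAVS1 libraries and 5.41 and 5.45 in the untransduced ones. These values rest on 80 to 115 reads in the 4 IRF2-guide libraries and 195 to 240 reads in the 4 control libraries. All 4 IRF2-guide libraries lay below all 4 controls, with a gap of 0.81 on the log2 scale between the nearest libraries. The log2 difference between both IRF2 guides and sgAAVS1 was -1.12 ± 0.10 (SE of the linear model), a level 2.17-fold lower, and against untransduced cells it was -1.21 ± 0.10. Ordered from the lowest difference upwards, it stood at place 52 of the 14665 tested genes. The difference from sgAAVS1 was -1.11 ± 0.12 with sg1-IRF2 and -1.12 ± 0.12 with sg2-IRF2, although sg2-IRF2 cells held more IRF2 reads.

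IL17RA, the shared chain of IL-17 receptors (chr22:17084954-17115694, plus strand), did not separate the same way. Its log2 value was 5.66 and 5.80 in the sg1-IRF2 libraries, 5.42 and 5.56 in the sg2-IRF2 libraries, against 5.57 and 5.72 in the sgAAVS1 libraries and 5.56 and 5.51 in the untransduced ones. IRF2-guide and control libraries overlapped, and both IRF2 guides against sgAAVS1 gave -0.03 ± 0.07. TRAF3IP2, the Act1 adaptor (chr6:111556454-111606278, minus strand), had log2 values of 5.59 and 5.72 in the sg1-IRF2 libraries, 5.78 and 5.52 in the sg2-IRF2 libraries, against 5.55 and 5.68 in the sgAAVS1 libraries and 5.68 and 5.61 in the untransduced ones. The lowest and the highest of its 8 values were both from sg2-IRF2 libraries, and the difference from sgAAVS1 was 0.04 ± 0.08. Of the IL-17 receptor and its adaptor, IL17RC was thus the gene with separate groups.

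TNFRSF14, the receptor for LIGHT (chr1:2555639-2565382, plus strand), had log2 values of 4.10 and 4.16 in the sg1-IRF2 libraries, 3.92 and 3.83 in the sg2-IRF2 libraries, against 4.49 and 4.47 in the sgAAVS1 libraries and 4.41 and 4.40 in the untransduced ones. The libraries held 79 to 96 reads with an IRF2 guide and 101 to 130 reads without, the fewest of the 9 genes in all but the first sg1-IRF2 library. In that library IL17RC had 80 reads and TNFRSF14 had 84. The IRF2-guide libraries lay below all controls by at least 0.24 on the log2 scale. Both guides against sgAAVS1 gave -0.47 ± 0.11, or 72.0% of the sgAAVS1 level, and both against untransduced cells gave -0.40 ± 0.11. By guide, the difference from sgAAVS1 was -0.35 ± 0.12 with sg1-IRF2 and -0.60 ± 0.12 with sg2-IRF2. TNFRSF1A, the TNF receptor (chr12:6328757-6342114, minus strand), had log2 values of 6.07 and 6.07 in the sg1-IRF2 libraries, 5.95 and 5.87 in the sg2-IRF2 libraries, against 5.96 and 6.15 in the sgAAVS1 libraries and 6.11 and 6.10 in the untransduced ones. Its groups overlapped through the first sgAAVS1 library, and both guides against sgAAVS1 gave -0.06 ± 0.06.

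TRAF5, an adaptor used by both IL-17 receptors and TNFRSF14 (chr1:211326615-211374946, plus strand), had log2 values of 5.31 and 5.16 in the sg1-IRF2 libraries, 5.42 and 5.29 in the sg2-IRF2 libraries, against 5.64 and 5.64 in the sgAAVS1 libraries and 5.76 and 5.87 in the untransduced ones. Reads ran from 191 to 252 in IRF2-guide libraries and from 225 to 321 in control libraries. On the log2 scale the IRF2-guide libraries lay below all controls by at least 0.22. Both guides against sgAAVS1 gave -0.35 ± 0.07, or 78.6% of the sgAAVS1 level, and against untransduced cells -0.52 ± 0.07. By guide, the difference from sgAAVS1 was -0.41 ± 0.08 with sg1-IRF2 and -0.29 ± 0.08 with sg2-IRF2. The lower mean was with sg1-IRF2 for TRAF5 and with sg2-IRF2 for TNFRSF14. Neither gene was called between the guides (limma adjusted p = 0.32 and 0.15).

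The other 3 TRAF genes overlapped between IRF2-guide and control libraries. TRAF2, a ubiquitin ligase family adaptor of TNF receptors (chr9:136881912-136926607, plus strand), ran from 6.23 to 6.40 on the log2 scale in IRF2-guide libraries and from 6.30 to 6.41 in controls. TRAF3, a restraint on noncanonical NF-kB signalling (chr14:102777476-102911500, plus strand), ran from 6.32 to 6.66 in IRF2-guide libraries and from 6.43 to 6.58 in controls. TRAF6, the ligase that Act1 engages (chr11:36487027-36510272, minus strand), ran from 6.11 to 6.24 in IRF2-guide libraries and from 6.18 to 6.30 in controls. Against sgAAVS1, both guides gave -0.08 ± 0.05 for TRAF2, -0.12 ± 0.05 for TRAF3 and -0.06 ± 0.06 for TRAF6.

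**Figure D1:**
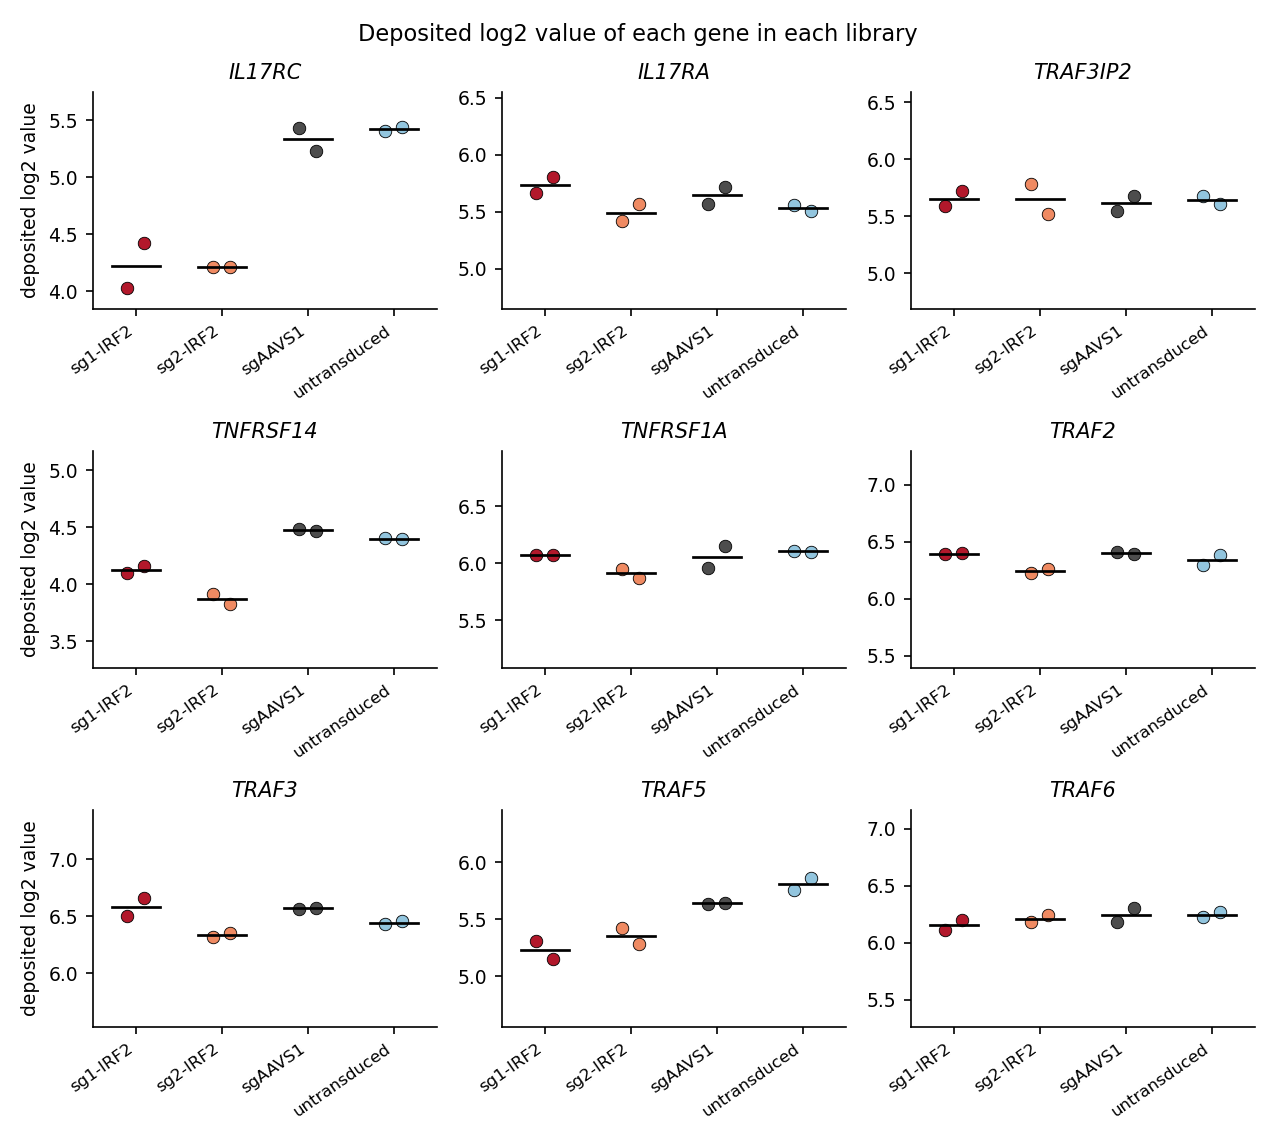
Deposited log2 value of each of the 9 genes in each of the 8 libraries, by group. Points are libraries and bars are group means of 2 libraries, and every panel spans the same height on the log2 scale. IL17RC, TNFRSF14 and TRAF5 show all 4 IRF2-guide libraries below all 4 control libraries, by gaps of 0.81, 0.24 and 0.22.

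In the fit across all 14665 genes, 1.59% of genes were called in both IRF2 guides against sgAAVS1 (limma, Benjamini-Hochberg adjusted p under 0.05), and 3 of the 9 genes were among them, all lower (1.1% of genes were called lower). Against untransduced cells 2.5% of genes were called, and the 3 were IL17RC, TNFRSF14 and TRAF5 again. Between libraries, 1.79% of all tested genes had all 4 IRF2-guide values below all 4 control values, as these 3 did. Because the 3 were chosen on these contrasts, nothing is read from the counts. The comparisons share libraries, so they are not separate support for each other. The count of 3 against sgAAVS1 was not reached under every setting: TNFRSF14 was not called with no filter on low values, without the first sgAAVS1 library (-0.46), without the first sg1-IRF2 library (-0.46) or without the second sg2-IRF2 library (-0.45), and TRAF5 was not called with no filter, with no mean-variance trend or without the second sg2-IRF2 library (-0.32). Against untransduced cells, TNFRSF14 was not called with no filter or with any 1 library of the untransduced or IRF2-guide groups left out, with differences from -0.42 to -0.38, and TRAF5 was not called with no mean-variance trend. With each guide taken singly against sgAAVS1, TNFRSF14 was called with sg2-IRF2, where 8.16% of all genes were called. It was not called with sg1-IRF2, where 0.825% of all genes were.

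As a description, the log2 differences from sgAAVS1 under the 16 other settings ran from -1.22 to -1.01 for IL17RC, from -0.50 to -0.44 for TNFRSF14 and from -0.39 to -0.31 for TRAF5. The guides taken singly gave further values for the genes whose groups overlapped. With sg2-IRF2 the difference from sgAAVS1 was -0.24 ± 0.06 for TRAF3, -0.16 ± 0.06 for TRAF2, -0.15 ± 0.08 for IL17RA and -0.14 ± 0.07 for TNFRSF1A. With sg1-IRF2 it was 0.01 ± 0.06 for TRAF3, -0.01 ± 0.06 for TRAF2, 0.09 ± 0.08 for IL17RA and 0.02 ± 0.07 for TNFRSF1A. These 4 genes were thus lower than sgAAVS1 with sg2-IRF2 and near it with sg1-IRF2, beside a median difference between the guides of 0.11 over all genes.

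Each guide was also set against the control on its own side of the first principal component. Between sg1-IRF2 and sgAAVS1 libraries the differences were -1.11 ± 0.12 for IL17RC, -0.35 ± 0.12 for TNFRSF14 and -0.41 ± 0.08 for TRAF5. Between sg2-IRF2 and untransduced libraries they were -1.21 ± 0.12 for IL17RC, -0.53 ± 0.12 for TNFRSF14 and -0.46 ± 0.08 for TRAF5. IL17RC was the lowest in both pairings, while TNFRSF14 and TRAF5 changed places. In IL17RA, TRAF2 and TRAF3 the 4 sgAAVS1 and sg1-IRF2 values all lay above the 4 untransduced and sg2-IRF2 values. The same was true of 16.4% of all tested genes, and nothing is read from the count. The nearest values of the 2 sides were 5.568 against 5.564 for IL17RA and 6.389 against 6.385 for TRAF2. For TRAF3 they were 6.505 against 6.461.

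The difference between the guides, sg1-IRF2 against sg2-IRF2, was not used to choose the genes and was tested over all 14665. In it 13.3% of all genes were called, 12.7% of all genes being called higher with sg1-IRF2, and the median difference of all genes was 0.11. TRAF3 was the 1 gene of the 9 that was called, with means of 6.58 ± 0.11 with sg1-IRF2 and 6.33 ± 0.03 with sg2-IRF2 (SD, n = 2 each) and a log2 difference of 0.25 ± 0.06 (limma adjusted p = 0.013). When library medians were aligned, its difference was 0.14 (limma adjusted p = 0.27) and 37.2% of the called genes were higher, against 95.2% without alignment. The TRAF3 call was also lost with quantile normalization (0.14), with voom (0.14), with no filter, with no mean-variance trend, and without the second sg1-IRF2 library (0.17), the first sg2-IRF2 library (0.23) or the second sg2-IRF2 library (0.27).

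IL17RC, at 4.22 ± 0.28 with sg1-IRF2 and 4.21 ± 0.0006 with sg2-IRF2 (SD, n = 2 each), gave a difference between guides of 0.01 with a 95% interval from -0.23 to 0.25 (limma adjusted p = 0.95). TNFRSF14 gave 0.25 ± 0.12, higher with sg1-IRF2, with an interval from 0.00 to 0.51 before adjustment over genes (limma adjusted p = 0.15). TRAF5 gave -0.12 ± 0.08 with an interval from -0.29 to 0.05 (limma adjusted p = 0.32). IL17RA gave 0.24 ± 0.08 (limma adjusted p = 0.053). A p above the threshold does not show that the guides acted alike on these genes, and the intervals give the sizes that the data allow.

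The control guide was set against no guide in the same way. Between sgAAVS1 and untransduced cells 4.75% of all genes were called and 0 of the 9, while 2791 genes had an unadjusted p under 0.05. IL17RC gave -0.09 with a 95% interval from -0.33 to 0.15 (limma adjusted p = 0.73), and TNFRSF14 gave 0.07 with an interval from -0.18 to 0.33 (limma adjusted p = 0.81). TRAF5 had the largest difference in size of the 9, at -0.17 with an interval from -0.34 to 0.00 (limma adjusted p = 0.27). TRAF3 followed at 0.13 (limma adjusted p = 0.27) and IL17RA at 0.11 (limma adjusted p = 0.52).

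**Figure D2:**
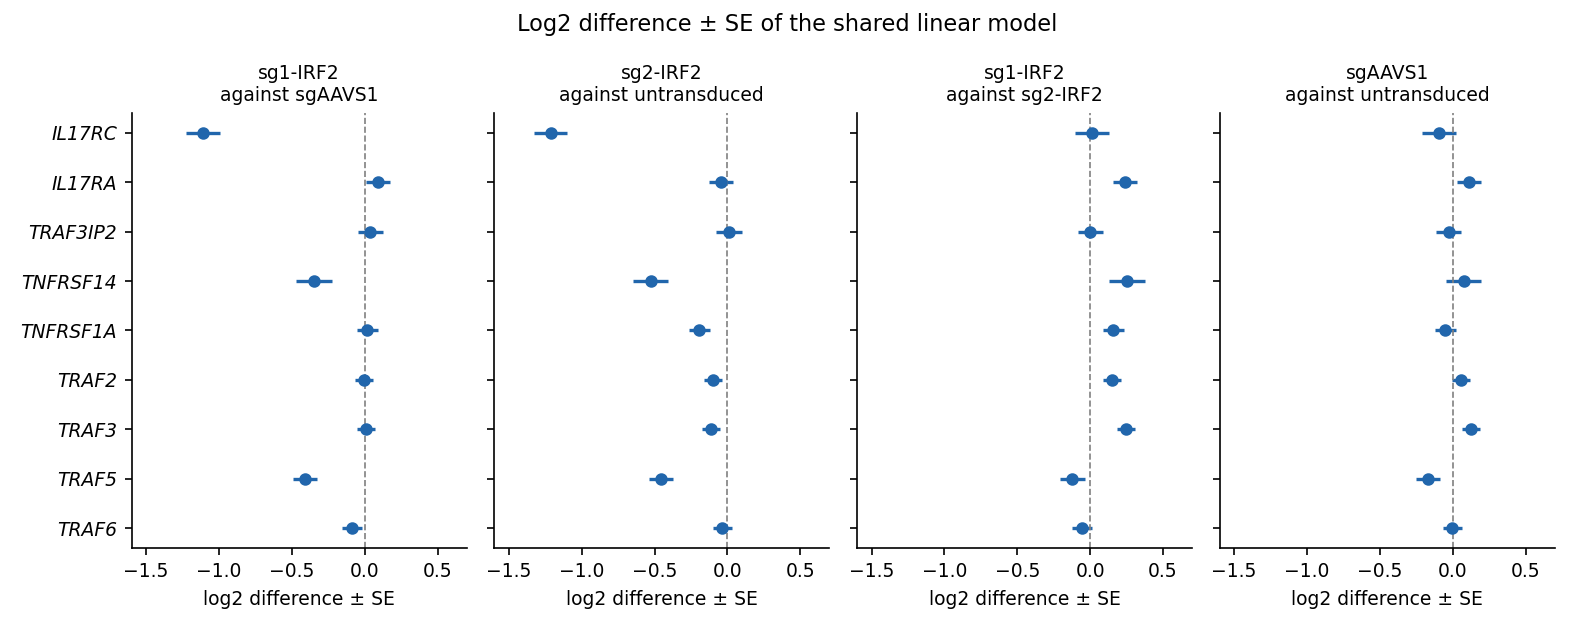
Log2 difference ± SE of the linear model for the 9 genes (rows) in 4 panels, each guide against the control on its side of the first principal component, then the guides against each other and the control guide against no guide, with the dashed line at 0. IL17RC lies at -1.11 and -1.21 in the first 2 panels and at 0.01 and -0.09 in the last 2.

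Levels were compared between genes as RPKM, here reads per exonic kilobase scaled to each library's reads over the listed genes, averaged over the 4 libraries of each kind. In IRF2-guide libraries TRAF2 was highest at 19.1, followed by TNFRSF1A at 14.0, TRAF6 at 13.1, TRAF3 at 9.35, TRAF3IP2 at 6.75, IL17RA at 4.76, TRAF5 at 3.83, IL17RC at 3.62 and TNFRSF14 at 2.27. In control libraries the order was TRAF2 at 19.8, TNFRSF1A at 14.8, TRAF6 at 13.6, TRAF3 at 9.65, IL17RC at 8.04, TRAF3IP2 at 6.61, TRAF5 at 5.15, IL17RA at 4.66 and TNFRSF14 at 3.05. By RPKM, IL17RC thus stood above its partner chain IL17RA in controls and below it in IRF2-guide cells. The order in controls rests on the exonic lengths, 4540 bases for IL17RC and 9036 for IL17RA. Before division by length, IL17RC had fewer reads than IL17RA in each control library. Of neighbours in the control order, TNFRSF1A (13.4 to 15.5) and TRAF6 (12.8 to 14.1) overlapped, as did TRAF5 (4.75 to 5.63) and IL17RA (4.38 to 5.08). In IRF2-guide libraries TNFRSF1A (13.3 to 14.3) and TRAF6 (12.1 to 14.1) overlapped too, and TRAF5 (3.31 to 4.34) overlapped IL17RC (3.07 to 3.96) and IL17RA (4.31 to 5.17), while TNFRSF14 (2.08 to 2.41) overlapped none of the 9.

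Over the 8 libraries, the log2 values of IL17RC went with those of TNFRSF14 (Pearson r = 0.904) and TRAF5 (r = 0.886), and TNFRSF14 with TRAF5 (r = 0.742). TRAF3 went with TRAF2 (r = 0.893) and with IL17RA (r = 0.843), while IL17RA and TRAF2 gave r = 0.642. These are descriptions over libraries that share their normalization and fall into groups, and the first 3 genes were chosen for falling together. Among 12491 genes whose log2 values average at least 2, those closest to IL17RC were TRIM6-TRIM34 (r = 0.988), EIF2AK2 (r = 0.982) and OGFR (r = 0.981). Those closest to TNFRSF14 were ZNF551 (r = 0.986), TRIM56 (r = 0.975) and RCN1 (r = 0.975), and those closest to TRAF5 were TRBV25-1 (r = 0.957), HELZ2 (r = 0.954) and UBE2L6 (r = 0.947). All 9 of these had lower means in both IRF2 guides than in sgAAVS1, with log2 differences from -0.25 ± 0.06 for OGFR to -2.39 ± 0.13 for UBE2L6. That direction follows from picking them by r with genes chosen for falling, and nothing is read from it. IRF2 itself ranked 27 by r for IL17RC (r = 0.953), 343 for TNFRSF14 (r = 0.781) and 20 for TRAF5 (r = 0.916).

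Genes beside the 3 were examined for how far the differences extended along the chromosome. Of the 9 listed genes within 50 kb of IL17RC, 8 were tested and 0 were called in both IRF2 guides against sgAAVS1. IL17RE, another IL-17 receptor chain, ends 672 bases before IL17RC and gave 0.02 ± 0.24 (limma adjusted p = 0.99), on 174 reads over the 8 libraries. CRELD1, which starts 192 bases after it, gave 0.10 ± 0.06 (limma adjusted p = 0.55), and JAGN1 gave -0.16 ± 0.06 (limma adjusted p = 0.34). Of the 2 genes within 50 kb of TRAF5, RCOR3 gave -0.06 ± 0.05 and LINC00467 gave -0.04 ± 0.07 (limma adjusted p = 0.80 and 0.91). IL17RC and TRAF5 were chosen for falling in this comparison and the genes around them were not. A distance from those genes follows from that choice, was not tested, and nothing is read from it.

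TNFRSF14 had 4 tested genes in its window and 0 called. PANK4 gave -0.03 ± 0.05 (limma adjusted p = 0.92) and FAM213B gave -0.01 ± 0.08 (limma adjusted p = 0.98). RP3-395M20.8, listed in GENCODE release 29 as TNFRSF14-AS1, lies on the opposite strand and overlaps the gene's start by 1393 bases. It had 91 reads with sg1-IRF2 and 81 with sg2-IRF2, against 129 with sgAAVS1 and 112 in untransduced cells, a difference from sgAAVS1 of -0.63 ± 0.17 (limma adjusted p = 0.055) and from untransduced cells of -0.32 ± 0.17 (limma adjusted p = 0.42). RP3-395M20.12, with 96 reads over the 8 libraries, gave -0.45 ± 0.41 against sgAAVS1 (limma adjusted p = 0.79) and 0.76 ± 0.41 against untransduced cells (limma adjusted p = 0.44). The antisense gene shares 831 exonic bases with TNFRSF14, or 13.4% of the exonic bases of TNFRSF14. The library kit was directional but the strand setting of the counting is not given in the sources used here, so reads of the pair cannot be told apart over those bases, and their part in the TNFRSF14 difference was not tested. TRAF2 lies within the listed span of RABL6 on the same strand and TRAF3IP2 lies opposite TRAF3IP2-AS1, but in neither case are exonic bases shared.

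**Figure D3:**
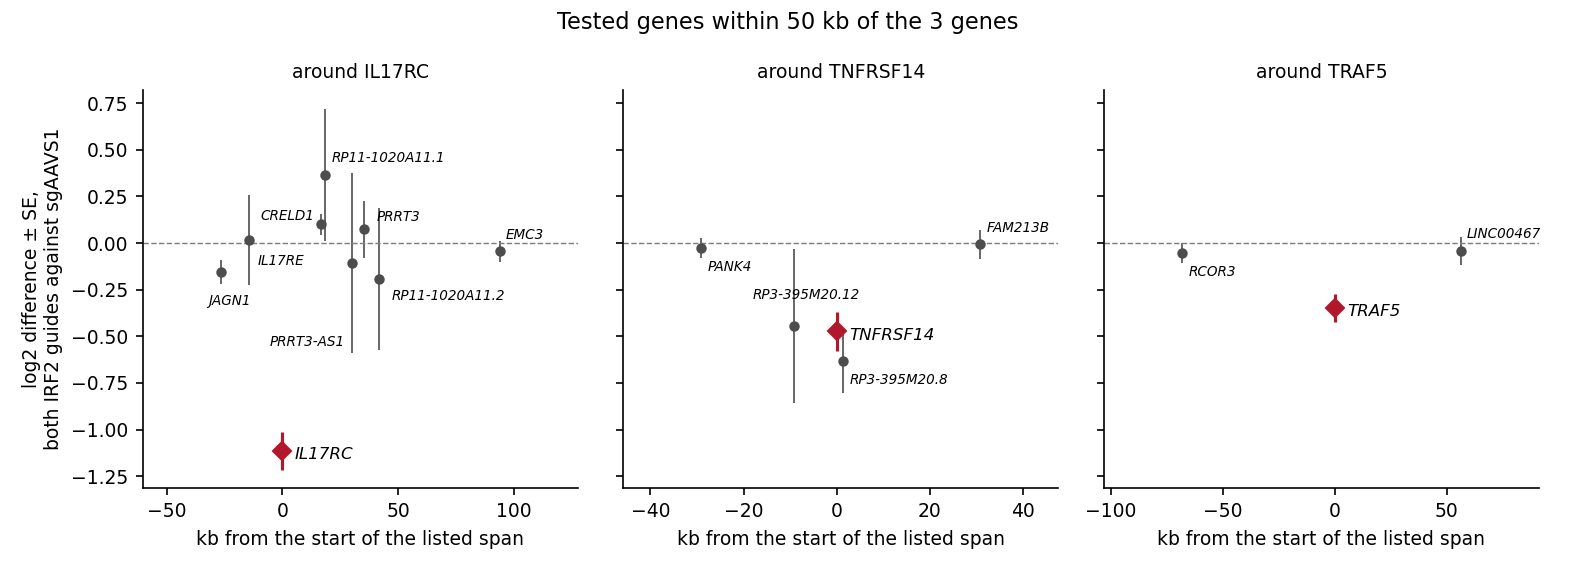
Log2 difference ± SE in both IRF2 guides against sgAAVS1 for IL17RC, TNFRSF14 and TRAF5 (red) and for each tested gene within 50 kb (grey), placed by the distance in kb of each gene's start from the start of the listed span. The antisense gene RP3-395M20.8 at -0.63 lies beside TNFRSF14 at -0.47, while the genes around IL17RC at -1.12 run from -0.19 to 0.37.

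The rest of the pathway was taken as 7 lists by role, 132 genes in all, of which 82 were tested and 29 had no read in any library. In both IRF2 guides against sgAAVS1, 2 of the 82 fell and 1 rose, or 3.66% against 1.59% of all genes, and their median was -0.00 beside -0.02 for all genes. The ligands of the receptors were scarce in these cells. IL17A, IL17F and IL25, with BTLA and CD160, had 0 reads, TNF and IL17C had 1 read each over the 8 libraries, LTB had 3 and LTA had 21. TNFSF14, the LIGHT ligand of TNFRSF14, was tested at a mean log2 of 2.56 and gave -0.35 ± 0.20 (limma adjusted p = 0.58). Of the 6 ligands of the TNF superfamily list that were tested, 0 were called, and their median of -0.30 was the lowest of the 7 lists; the best expressed, TNFSF9, gave -0.08 ± 0.06 (limma adjusted p = 0.72).

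Among receptors, 0 of the 3 tested IL-17 ligands and other chains were called, and IL17RB, the chain for IL-25, gave -0.40 ± 0.20 (limma adjusted p = 0.50) at a mean log2 of 2.60. Of 13 tested genes of the TNF receptor superfamily, 1 fell: TNFRSF1B, the second TNF receptor (chr1:12167003-12209228). Its log2 values were 7.03 and 7.10 in the sg1-IRF2 libraries, 6.87 and 6.89 in the sg2-IRF2 libraries, against 7.15 and 7.20 in the sgAAVS1 libraries and 6.95 and 7.003 in the untransduced ones. The sgAAVS1 libraries were the highest, and both IRF2 guides gave -0.21 ± 0.05 against sgAAVS1 (limma adjusted p = 0.016) and -0.01 ± 0.05 against untransduced cells (limma adjusted p = 0.97). The call was lost with no filter, with no mean-variance trend, and without the second sgAAVS1 library (-0.18), the first sg1-IRF2 library (-0.19), or either sg2-IRF2 library (-0.20 and -0.21). TNFRSF10B and LTBR, the best expressed receptors of the list beside it, gave 0.06 ± 0.05 and -0.01 ± 0.05 (limma adjusted p = 0.75 and 0.96).

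Of 21 tested TRAFs and receptor adaptors beyond the 9 genes, 1 rose and 1 fell. RBCK1, which encodes the HOIL-1 subunit of the linear ubiquitin ligase complex LUBAC that acts at the TNF receptor, rose (chr20:407498-430966, plus strand). Its log2 values were 7.13 and 7.06 in the sg1-IRF2 libraries, 6.94 and 6.88 in the sg2-IRF2 libraries, against 6.51 and 6.51 in the sgAAVS1 libraries and 6.38 and 6.46 in the untransduced ones. All 4 IRF2-guide libraries lay above all 4 controls, and both guides against sgAAVS1 gave 0.49 ± 0.05, or 1.41-fold (limma adjusted p = 8.2e-08). It was called under all 16 other settings, with differences from 0.47 to 0.51. The other LUBAC subunits, RNF31 and SHARPIN, gave 0.10 ± 0.06 and -0.05 ± 0.07 (limma adjusted p = 0.59 and 0.87), and both have listed spans that overlap other genes. RIPK1, the kinase at the TNFRSF1A complex, gave -0.22 ± 0.06 (limma adjusted p = 0.042) but -0.10 ± 0.06 against untransduced cells (limma adjusted p = 0.45). Its call was lost with quantile normalization (-0.20), with aligned medians (-0.20), with voom (-0.21), with no filter, with no mean-variance trend and with the replicate number as a block (limma adjusted p = 0.051). It was also lost without either untransduced library (-0.22), the second sgAAVS1 library (-0.14), the first sg1-IRF2 library (-0.19) or either sg2-IRF2 library (-0.23 and -0.21).

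Downstream, 0 of 19 tested kinases and NF-kB subunits, 0 of 10 feedback inhibitors and 0 of 10 target genes were called in both IRF2 guides against sgAAVS1. Their medians were -0.04, 0.03 and 0.05. The best expressed of each list were MAP3K7 (TAK1, the kinase activated by TRAF6), at 0.07 ± 0.04, the ubiquitin ligase ITCH, at -0.00 ± 0.04, and the NF-kB target SOD2, at 0.02 ± 0.04 (limma adjusted p = 0.59, 0.98 and 0.94). The target genes ICAM1 and CEBPB gave -0.03 ± 0.06 and 0.04 ± 0.06 (limma adjusted p = 0.92 and 0.88). In sg1-IRF2 against sg2-IRF2, 8 of the 82 were higher and 2 lower, or 12.2% against 13.3% of all genes.

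**Figure D4:**
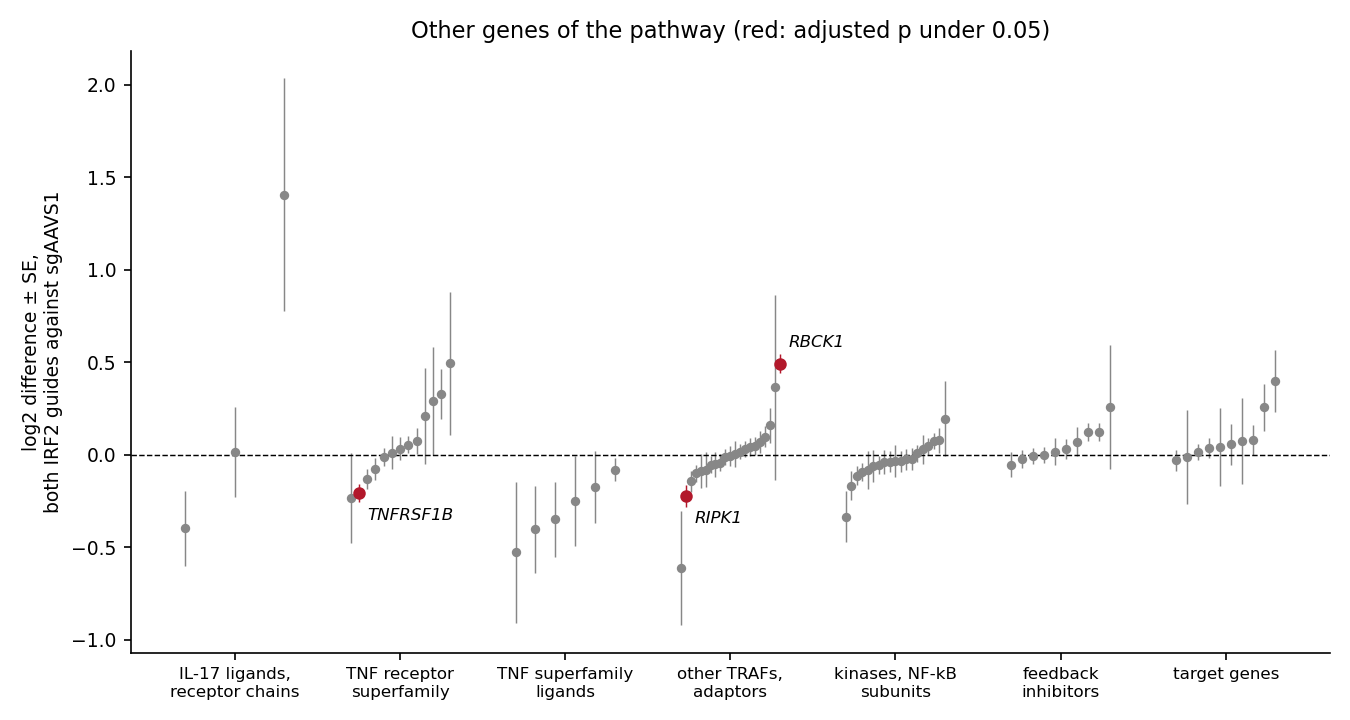
Log2 difference ± SE in both IRF2 guides against sgAAVS1 for the 82 tested pathway genes other than the 9, grouped by role and sorted within each list. Red marks the called genes, RBCK1 at 0.49 and TNFRSF1B and RIPK1 at -0.21 and -0.22, and the dashed line is at 0.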

How the data were processed

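RNA from 8 libraries of K562 cells was sequenced after ribosomal RNA depletion with a directional kit, per the labels' protocols. Tools and build per the submitters' processing notes were hg38, Bowtie2 and cutadapt, with no versions. How reads were counted, with which strand setting and annotation, is not given in the sources used here. Values were deposited by the authors as log2: on the linear scale every value above a column's minimum is a whole number of reads divided by 1 factor per library (tolerance 0.01 read), and genes without reads stand at 0.9 read. Reads were recovered from these for depth, levels per exonic kilobase (GENCODE release 29) and 1 alternative.

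Group means were fitted to all 8 libraries on the deposited log2 values (limma 3.58.1 in R 4.3.3, eBayes with a mean-variance trend, two-sided, Benjamini-Hochberg over 14665 genes with mean log2 at or above 0, called at adjusted p under 0.05). Residual degrees of freedom were 4 and prior 22.4. Errors are standard errors of that model or the SD of 2 libraries. The reads of the 2 libraries of a group differed with a chi-square per degree of freedom for which counting noise gives about 1. It was 1.69 in sgAAVS1 and 0.644 to 0.818 in the other groups. Both libraries of each group were kept. The fit was tested on simulated data. Tables and plots were made with pandas 2.3.3, numpy 2.4.6 and matplotlib 3.10.9 (Python 3.11.15).

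The 9 genes and all lists were chosen with earlier results of these data known. Named are the 9 genes; of each list the called genes and among the 3 with the highest mean; the 3 genes with the highest Pearson r to IL17RC, TNFRSF14 and TRAF5; tested genes within 50 kb of these 3 or overlapping a member; and IRF2. Genes named outside that rule (RNF31, SHARPIN, the scarce ligands and the cell type markers at 0 reads) were chosen after their values were seen. Alternatives were other filters, a pseudocount of 1, quantile normalization, aligned medians, no trend, a replicate block, voom and leaving out each library.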

Additional observations from a re-analysis of the deposited data

Results flagged for a closer look

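Of the values given above, 4 differed between the guides, sg1-IRF2 against sg2-IRF2, in the limma fit. TRAF3 was higher with sg1-IRF2 by 0.247 on the log2 scale (adjusted p = 0.013). IRF2 was lower with sg1-IRF2 by a log2 difference of -1.77 (adjusted p = 9.7e-06), and it was called in 15 of 16 other settings, the exception being the fit with no mean-variance trend (adjusted p = 0.11). TNFRSF1B was higher with sg1-IRF2 by 0.186 (adjusted p = 0.025) and RBCK1 by 0.187 (adjusted p = 0.034), beside a median of 0.11 over all genes. With library medians aligned, TRAF3 gave 0.14 (adjusted p = 0.27), TNFRSF1B 0.07 (adjusted p = 0.54) and RBCK1 0.08 (adjusted p = 0.60), while IRF2 gave -1.88 (adjusted p = 1e-04). Without 1 library, TNFRSF1B ran from 0.15 to 0.22 and RBCK1 from 0.15 to 0.22, and both lost their calls without any 1 of the sg1-IRF2 or sg2-IRF2 libraries. With 2 libraries a group, no single library could be tested as standing apart from the rest of its group.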

How the results depend on the processing

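For the 9 genes, 261 of 288 differences between guides or between controls under an alternative kept their direction and call, 15 turned sign, 8 lost and 4 gained a call. Of 576 differences between IRF2-guide and control cells, given without a test, 36 moved by more than the SD between replicates and 31 changed sign. Of the tested genes, those called in both IRF2 guides against sgAAVS1 (1.59%) were 0.608% with no filter (20393 genes tested), 0.409% with no trend and 0.961% to 2.92% with 1 library left out; against untransduced cells (2.5%), 0.637%, 0.368% and 0.723% to 5.61%; in sg1-IRF2 against sgAAVS1 (0.825%), 0.368%, 0.307% and 0.518% to 1.62%. In sg2-IRF2 against sgAAVS1 (8.16%) they were 2.52%, 0.389% and 1.55% to 13.1%, and 4.22% with quantile normalization, 3.41% with aligned medians and 3.83% with voom, chosen after seeing the data; in sg1-IRF2 against sg2-IRF2 (13.3%), 2.63%, 0.0136%, 0.784% to 24.7%, 1.96%, 1.58% and 1.57%; in sgAAVS1 against untransduced cells (4.75%), 1.19%, 0.075% and 1.25% to 9.93%. Pathway genes called (3) were 1 with no filter, 1 with no trend and 1 to 3 without 1 library. The share of called genes that were higher moved from 95.2% to 37.2% between guides, 12.9% to 52.6% in sg2-IRF2 against sgAAVS1 and 62.4% to 46.6% in sgAAVS1 against untransduced cells when medians were aligned; other causes were not tested. Signs turned for differences near 0: between guides, IL17RC gave -0.12 with quantile normalization, -0.10 with aligned medians, -0.081 with voom and -0.19 to 0.21 without 1 library, and TRAF3IP2 -0.12, -0.11, -0.10 and -0.13 to 0.13; between sgAAVS1 and untransduced cells, without 1 library, IL17RC ran from -0.19 to 0.008, TNFRSF1A from -0.14 to 0.044, TRAF6 from -0.062 to 0.056 and TRAF3IP2 from -0.092 to 0.038. IL17RA was called between guides with a mean log2 filter of 2 (adjusted p = 0.046) and without either sgAAVS1 library (adjusted p = 0.018 and 0.019). Deviations of same-numbered libraries had a correlation over 0.1 in 1 of 6 pairs of groups, sgAAVS1 and sg1-IRF2, at 0.216 over 12500 genes. The other pairs ran from -0.079 to 0.024. Replicate number was not in the main fit. With a replicate block, 1.37% of genes were called in both guides against sgAAVS1 and 2.24% against untransduced cells. The block gave 0.771% and 7.58% for sg1-IRF2 and sg2-IRF2 against sgAAVS1, 12.3% between guides and 4.37% between controls. IL17RA was then called between guides (adjusted p = 0.049). The planned quasi-likelihood count test was not run because the deposited unit is log2. Depth limits TNFRSF14 most, at 79 to 130 reads a library.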

Other observations

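Among the pathway genes, some differed along the split that sets sgAAVS1 and sg1-IRF2 libraries apart from untransduced and sg2-IRF2 libraries. The following were chosen after their values were seen. IKBKE, a kinase related to the IKK complex, averaged 4.07 ± 0.28 with sg1-IRF2 and 3.41 ± 0.14 with sg2-IRF2 on the log2 scale (SD, n = 2 each), a difference of 0.66 ± 0.16 (limma adjusted p = 0.01). It averaged 4.07 ± 0.0008 with sgAAVS1 and 3.46 ± 0.18 in untransduced cells, a difference of 0.62 ± 0.16 (limma adjusted p = 0.022). NGFR, a member of the TNF receptor superfamily that binds neurotrophins, went the other way, with differences of -0.57 ± 0.16 between guides (limma adjusted p = 0.019) and -0.87 ± 0.16 between controls (limma adjusted p = 0.0011). TNFRSF8, the CD30 receptor, gave 0.34 ± 0.07 between guides (limma adjusted p = 0.0034) and 0.24 ± 0.07 between controls (limma adjusted p = 0.045). These pairs of comparisons share no library, but they share the fit's estimate of the spread, and the genes were picked on both. Of all tested genes, 16.4% had every sgAAVS1 and sg1-IRF2 value above every untransduced and sg2-IRF2 value, and 1.97% had every one below. Nothing is read from the match between the 2 comparisons.

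CXCL8, the neutrophil chemokine that IL-17 and TNF induce in many cells, averaged 2.73 ± 0.24 with sg1-IRF2 and 3.65 ± 0.26 with sg2-IRF2 (SD, n = 2 each), a difference of -0.92 ± 0.19 (limma adjusted p = 0.0038), on 29 to 79 reads a library. Between sgAAVS1 and untransduced cells it gave -0.59 ± 0.19 (limma adjusted p = 0.079).

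With aligned medians, the differences between guides were 0.55 for IKBKE (limma adjusted p = 0.08), -0.68 for NGFR (limma adjusted p = 0.03), 0.23 for TNFRSF8 (limma adjusted p = 0.096) and -1.03 for CXCL8 (limma adjusted p = 0.0056). Between guides, without 1 library, the calls of IKBKE were lost without the second library of either guide (0.47 and 0.56), those of NGFR without the second sg1-IRF2 library (-0.39) or either sg2-IRF2 library (-0.53 and -0.61), that of TNFRSF8 without the second sg1-IRF2 library (0.35), and that of CXCL8 without the second sg2-IRF2 library (-0.74). Between controls, the IKBKE call was lost without either untransduced library (0.49 and 0.74), that of NGFR without the second untransduced library (-0.71), and that of TNFRSF8 without any library but the second sgAAVS1 one, with 0.16 at the lowest and 0.32 at the highest. The TNFRSF8 call between controls was also lost with the replicate number as a block (limma adjusted p = 0.064), with aligned medians (limma adjusted p = 0.065), with quantile normalization (limma adjusted p = 0.064) and with voom (limma adjusted p = 0.077). With no filter or no mean-variance trend, the calls between controls of all 3 genes were lost (limma adjusted p from 0.051 to 0.27), as were those between guides of IKBKE, NGFR and CXCL8 with no filter and of all 4 genes with no trend. With quantile normalization or voom, those of IKBKE and TNFRSF8 between guides were lost (limma adjusted p from 0.07 to 0.091).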
